A study of Mus musculus with 6 samples.

Results

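The cytosolic ribosomal protein genes were taken from the mouse aortic arch by name. A gene entered when its symbol began with Rpl or Rps and a digit, or was Rplp0, Rplp1, Rplp2 or Rpsa, and pseudogene names and the Rps6k kinases were left out. This gave 82 of the 14298 genes listed, 48 named for the large and 34 for the small subunit. The same rule found 93 symbols in the symbol table, and 11 of these, among them Rpl24 and Rpl41, were not among the genes listed and were not analysed here. Rps19bp1 met the rule but encodes a binding protein of Rps19. Another 5 symbols, Rpl22l1, Rpl36al, Rpl7l1, Rps27l and Rps4l, are paralogues of a subunit gene. Rpl37rt also met the rule and was counted with the large subunit, although it had no coding sequence in the annotation. It was not summed with Rpl37.

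A ribosome joins a small subunit, which reads the mRNA, to a large subunit, which forms the peptide bond. Their proteins are needed in equal number apart from the stalk proteins Rplp1 and Rplp2, and their mRNAs classically start with an oligopyrimidine tract (a run of C and T at the 5′ end) through which mTOR and Larp1 control their translation. In an atherosclerotic arch, muscle, endothelial, adventitial and immune cells all contribute these mRNAs.

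All mice were adult C57/BL6 carrying ApoE-/- and RBPJflox/flox, were given tamoxifen for 1 week at 8 weeks of age, and then ate a high fat diet for 6 weeks. The 3 control mice carried no Cre, and the 3 knockout mice also carried Cdh5-CreERT, so the groups differed in the recombinase as well as in the deletion. The Cdh5 promoter drives recombination in endothelium, while polyA RNA of the whole arch was sequenced. In such bulk RNA, fewer cells of a type and less RNA per cell cannot be told apart. The columns carry library numbers, S591, S592 and S594 for control and S595, S598 and S599 for knockout, and per-library values are given below in that order, control before knockout.

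Each library had 5904504 to 10072495 reads on the listed genes, of which 110252 to 200095 fell on the ribosomal protein genes. Rbpj, the deleted gene, was at 174, 191 and 200.4 CPM in control and 169, 197 and 212 CPM in knockout libraries (log2 fold change 0.03, limma adjusted p = 0.923). The groups overlapped, so whole-arch Rbpj did not check the labels. Endothelial markers (10 of 10 measured, Cdh5 and Pecam1 among them) summed to 1111 to 1180 CPM in control and 880 to 1341 CPM in knockout libraries. Markers of other cell types differed more. The 14 measured macrophage markers summed to 6827, 9278 and 11211 CPM against 3775, 2838 and 6893 CPM. The 11 smooth muscle markers summed to 14405 to 25126 CPM in control and 25387 to 34466 CPM in knockout libraries, and the 5 measured of 8 airway epithelial markers to 2.75 to 10.5 and 63.0 to 87.0 CPM, with Foxj1, Krt5 and Epcam not listed and Scgb3a2 at 0 reads in at least 1 library. The 8 fibroblast markers summed to 12061 to 19581 CPM in control and 8671 to 11711 CPM in knockout libraries. Thymocyte and T cell markers (17 of 19 measured, Rag2 and Ptcra not listed) summed to 80.9 to 99.2 CPM in control libraries and to 72.8, 341 and 158 CPM in S595, S598 and S599. The part of these differences in the ribosomal protein values was not tested.

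Start regions are shown for genes that recur in the results and for Rpl27a, which does not recur. They are shown because the pyrimidine tract at the start is the shared mark of these mRNAs. Each line gives 30 bases before and 30 bases from the start annotated by RefSeq on GRCm38.p6, 5′ to 3′ on the gene's strand, and the capitals mark the longest run of C and T that begins with a C within 40 bases of that start.
Rplp2 (chr7:141447621-141447680, plus strand): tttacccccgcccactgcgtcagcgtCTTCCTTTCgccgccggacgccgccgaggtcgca
Rpl35 (chr2:39005102-39005161, minus strand): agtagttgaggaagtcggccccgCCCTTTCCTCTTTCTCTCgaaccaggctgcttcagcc
Rps6 (chr4:86857338-86857397, minus strand): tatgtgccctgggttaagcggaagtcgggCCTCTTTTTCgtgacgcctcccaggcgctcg
Rpl27a (chr7:109519165-109519224, plus strand): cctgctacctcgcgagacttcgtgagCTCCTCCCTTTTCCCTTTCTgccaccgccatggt
Rplp0 (chr5:115559437-115559496, plus strand): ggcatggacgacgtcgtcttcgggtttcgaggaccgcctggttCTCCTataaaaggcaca
Rps19 (chr7:24884562-24884621, plus strand): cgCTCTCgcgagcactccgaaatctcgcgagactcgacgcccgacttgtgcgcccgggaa
These runs, counted from their first C, were 9, 18, 10 and 20 bases long in Rplp2, Rpl35, Rps6 and Rpl27a, and 5 bases in both Rplp0 and Rps19. The run of Rpl27a was the longest among the members with a RefSeq promoter. Annotated starts were not checked against reads here, so a short run describes this window and not the mRNA's true 5′ end.

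A RefSeq promoter was matched for 61 of the 82 genes. A run of at least 8 pyrimidines that begins with C, within 40 bases of the annotated start, was held by 40 of the 61 (65.6%). The same feature was held by 23.1% of the 10633 listed genes with a promoter and by 23.2% of all 27025 promoters. It was held by 75% of the 36 large and 52.0% of the 25 small subunit genes. The ETS motif CCGGAAG (or CTTCCGG on the other strand), searched from 250 bases before to 50 bases after the start, was held by 37.7% of the 61, against 17.4% of listed genes and 9.12% of all promoters. The YY1 motif AAGATGGC (or GCCATCTT) was held by 8.20%, against 4.59% and 2.88%, and TATAAA (or TTTATA) by 9.84%, against 7.10% and 14.2%. These letters are a description of the windows and say nothing of binding.

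The typical ribosomal protein gene lay slightly lower in knockout than in control libraries. No member passed limma's test (0 of 82 at an adjusted p of 0.05, Benjamini-Hochberg over all genes), where 0.021% of all genes did, 3 of them higher in knockout libraries (0.021%) and none lower (0.0%). The median log2 fold change was -0.11 over the 82, -0.11 for the large and -0.13 for the small subunit, against -0.02 over all 14298 genes. The middle 50% lay between -0.20 and -0.02 for large subunit genes and between -0.18 and -0.05 for small subunit genes. The sign was negative for 66 of 82 members, where 52.2% of all genes were negative.

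At an unadjusted p of 0.05, 7 members stood out, 1 higher and 6 lower, which is 8.54% of them. The same held for 2860 of all 14298 genes, 8.04% higher and 12.0% lower, and for 27.1% of the 4096 other genes between the members' 10th and 90th percentile of level. The 2 groups did not overlap for 19 members (23.2%), 1 higher and 18 lower, against 25.5% of all genes, 11.3% higher and 14.2% lower. The share without overlap in both directions together was near that of all genes, but 18 of these 19 members were lower. Most signs were negative. The count at an unadjusted p of 0.05 was 7 without S591, 2 without S592, 3 without S594, 14 without S595, 3 without S598 and 1 without S599. Over all genes the counts in that order were 3430, 2229, 1657, 2867, 1573 and 2574 of 14298. Limma with array weights called 1 member, Rpl31, and 7.07% of all genes, and DESeq2 called 0 members and 6.29% of all genes. The quasi-likelihood test of edgeR called 0 members and 0 of all genes. The count at an unadjusted p of 0.05 was 3 members with DESeq2 and 3 with edgeR, where 2598 and 2899 of all genes reached it. That count was 15 with array weights, where 3924 of all genes reached it, and 3 after rescaling to the same sum, where 2832 did.

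**Figure D1:**
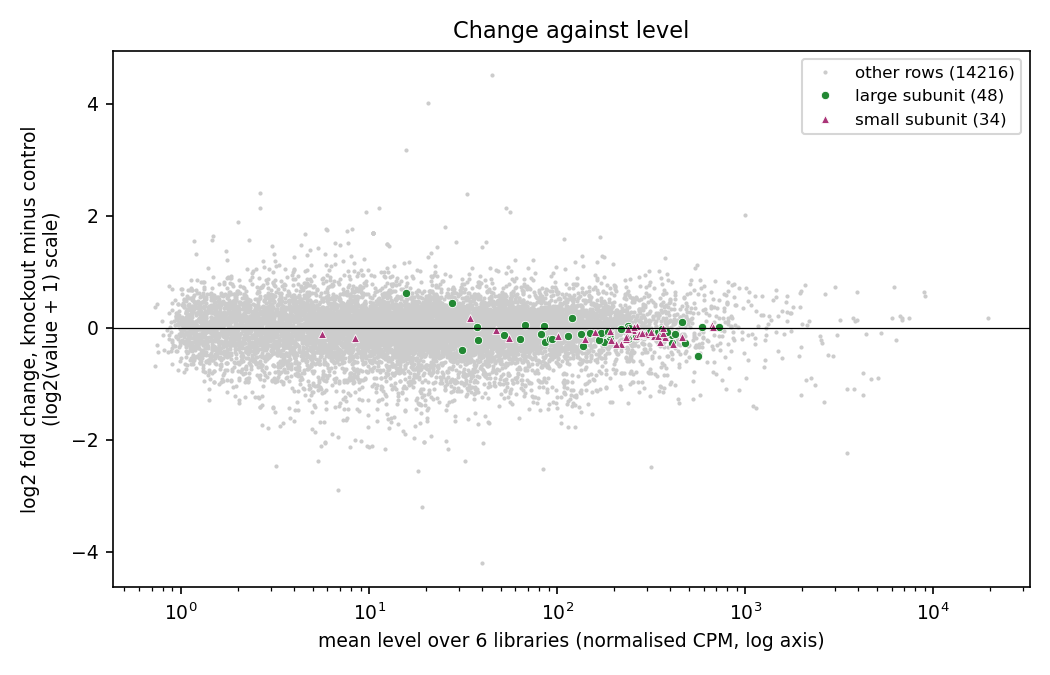
Difference of the knockout from the control group, as a log2 fold change after adding 1 to each value, against the mean level over 6 libraries in normalised CPM (log axis), with large subunit genes as green circles, small subunit genes as purple triangles and the other listed genes in grey. The members form a narrow band slightly below 0, with a median of -0.11, and Rplp0 at -0.50 and Rpl27 at 0.61 lie farthest out.

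One knockout library, S599, carried a large part of this shift. The mean log2 level of the 82 genes, relative to each gene's own mean over the 6 libraries, was -0.01, 0.09 and 0.08 in the control and 0.03, -0.02 and -0.17 in the knockout libraries. The control and knockout values overlapped, and S599 was the lowest. S599 held the lowest value of the 6 libraries for 57 of the 82 members (69.5%), while it was lowest for 14.9% of all genes. Values below the gene's own mean numbered 75 of 82 in S599, 51 in S598 and 28 in S595, against 45, 10 and 20 in the control libraries. Without S599 the median log2 fold change was -0.05, with 54 of 82 negative. Without both S598 and S599, which were picked with earlier results of these data known and leave S595 as the only knockout library, it was -0.02, with 50 negative. At an unadjusted p of 0.05 there were then 0 members and 1337 of all genes. Markers of other cell types also differed between these libraries. The 5 measured of 8 red blood cell markers (Hbb-b1, Hbb-b2 and Slc4a1 not listed) summed to 442, 288 and 301 CPM in control and 120, 1107 and 1684 CPM in knockout libraries, highest in S599. Their part in the low S599 values was not tested.

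**Figure D2:**
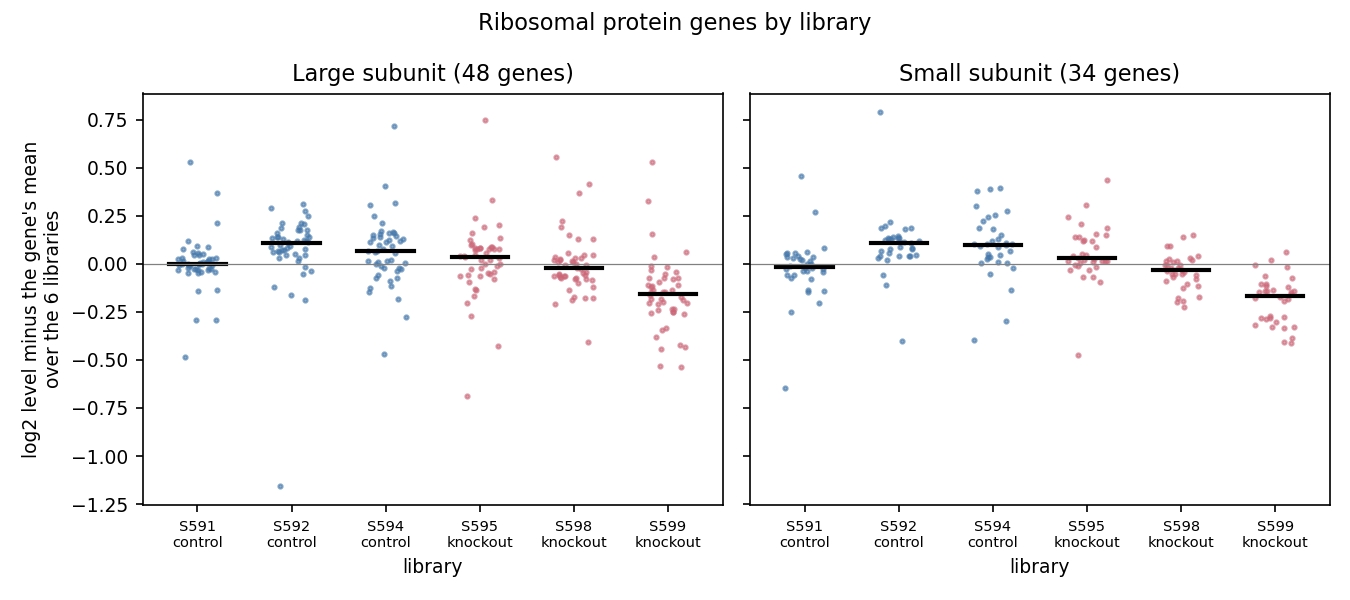
Log2 level of each gene minus that gene's mean over the 6 libraries, for 48 large subunit genes (left) and 34 small subunit genes (right), with 1 point per gene, control libraries in blue, knockout libraries in red and black bars at the medians. The S599 points sit lowest in both panels, with 75 of the 82 below 0.

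The ribosomal protein genes together held 1.87%, 2.08% and 2.13% of the summed signal in control and 1.97%, 1.99% and 1.801% in knockout libraries. The group values were 2.03% ± 0.142 (SD, n = 3) and 1.92% ± 0.102 (SD, n = 3), and they overlapped. Large and small subunit genes kept nearly the same ratio in every library. The summed large subunit signal was 1.25, 1.25 and 1.21 times that of the small subunit in control and 1.23, 1.22 and 1.24 times in knockout libraries. The mean log2 level of large minus small subunit genes was -0.21 ± 0.03 (SD, n = 3) in control and -0.19 ± 0.04 (SD, n = 3) in knockout libraries, again with overlap.

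The deviations of single genes went with base composition in several libraries. Across the 80 members with a coding sequence in the annotation, the deviation in S599 had a Pearson r of -0.46 and a Spearman rho of -0.53 with GC content. In the control library S594 they were 0.34 and 0.45, of the opposite sign, and in S595 0.19 and 0.28. In S598 they were -0.14 and -0.25, in S591 0.03 and 0.12, and in S592 -0.0005 and 0.10. The log2 fold change had -0.27 and -0.37, or -0.44 and -0.47 with near-identical copies summed as described below. Coding length gave 0.02 and 0.05 with the log2 fold change. A gene's deviations cancel out over the 6 libraries, so the values of different libraries, opposite signs included, are not independent of each other. These are descriptions across genes that share the same 6 libraries, and the part of GC content in the group difference was not tested.

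The 3 stalk genes all had a negative log2 fold change. Rplp0, the base of the stalk that brings the GTPase elongation factors to the ribosome, was at 568, 669 and 722 CPM in control and 623, 412 and 376 CPM in knockout libraries. S598 and S599 were below every control, and S595 lay among the controls, so the groups overlapped. Its log2 fold change was -0.50 (SE 0.21, 95% interval -0.98 to -0.02, limma adjusted p = 0.232), the most negative of all members. Rplp2, which pairs with Rplp1 at the tip of the stalk, was at 144, 146 and 167 CPM against 135, 129 and 100.1 CPM. All 3 knockout libraries were below all controls, with a log2 fold change of -0.33 (SE 0.14, adjusted p = 0.230). Rplp1, the remaining stalk gene, named after its values were seen, was at 387, 465 and 477 CPM against 427, 379 and 299 CPM. S595 again lay among the controls, and the log2 fold change was -0.28 (SE 0.16, adjusted p = 0.377).

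Rps19, a small subunit protein whose loss impairs red cell formation, was at 225, 246 and 246 CPM against 218, 201 and 171 CPM. The groups did not overlap and S599 was lowest (log2 fold change -0.29, SE 0.12, adjusted p = 0.231). Rps29, a zinc-binding small subunit protein, named after its values were seen, was at 212, 216 and 246 CPM against 206, 188 and 162 CPM. It showed the same order, with a log2 fold change of -0.28 (SE 0.12, adjusted p = 0.249). Rpsa, a small subunit protein also known as the laminin receptor precursor and likewise named after its values were seen, was at 402, 449 and 499.5 CPM against 452, 359 and 304 CPM, and its groups overlapped (log2 fold change -0.29, SE 0.17, adjusted p = 0.376).

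Rpl35, which lies beside the exit of the nascent peptide tunnel, was at 93.0, 94.1 and 94.2 CPM against 76.0, 84.3 and 74.0 CPM. The control libraries had an SD of 0.655 CPM and all lay above the knockout libraries (log2 fold change -0.26, SE 0.09, adjusted p = 0.176). None of these genes passed the adjusted threshold with or without S599.

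**Figure D3:**
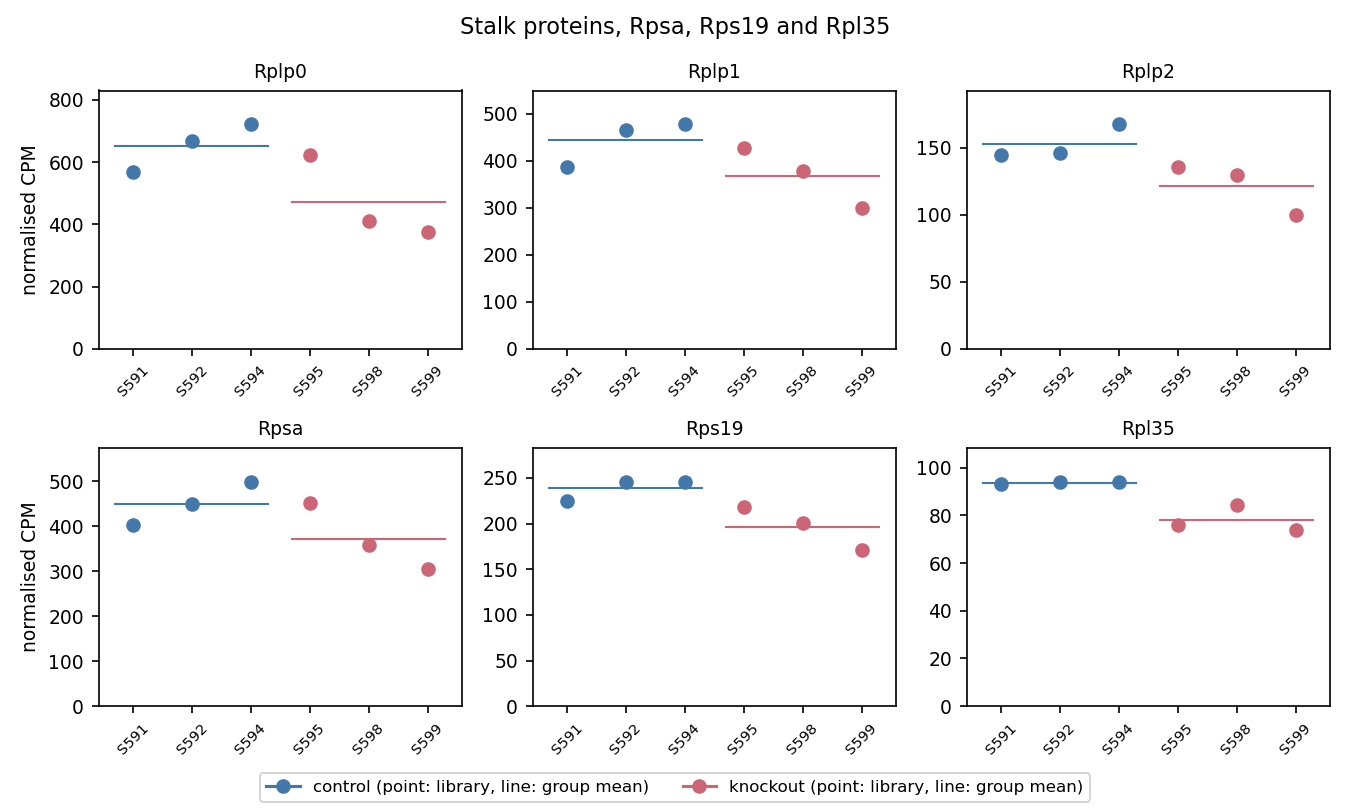
Normalised CPM (linear axes from 0) of Rplp0, Rplp1, Rplp2, Rpsa, Rps19 and Rpl35, with 1 point per library, control in blue, knockout in red and lines at the group means of 3 libraries. S599 is the lowest point in all 6 panels, and S595 lies among the controls for Rplp0, Rplp1 and Rpsa.

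Apart from Rplp0, the members of the highest level, Rpl4, Rps4x, Rpl7 and Rps3a1, lay near 0. Rpl4, which lines the peptide tunnel, was at 723, 757 and 689.9 CPM against 764, 734 and 686 CPM, a log2 fold change of 0.01 (95% interval -0.27 to 0.29). Rps4x, the X-linked small subunit protein, varied least, at 663, 694 and 666 CPM against 669, 695 and 669 CPM, with a log2 fold change of 0.01 (95% interval -0.25 to 0.27) and 1.05 times between its highest and lowest library. Rpl7, a large subunit protein, was at 589, 605 and 549.8 CPM against 601, 590.2 and 578 CPM (0.02). Rps3a1, of the small subunit, was at 639, 719.6 and 607 CPM against 663, 710.1 and 663 CPM (0.05). The groups of all 4 overlapped. Rps3, which lies at the entry of the mRNA channel and also acts in DNA repair, was at 462, 502 and 492 CPM against 447, 433 and 415 CPM. All its knockout libraries were below the controls, with a log2 fold change of -0.17 (SE 0.10, adjusted p = 0.407).

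Rpl31 had the smallest p of all members and Rpl5 the smallest among those of positive sign, and both had few reads of their own. Rpl31, a protein at the tunnel exit, was at 36.0, 36.8 and 33.8 CPM against 26.7, 26.6 and 27.3 CPM. The groups were clearly apart, with a log2 fold change of -0.39 (SE 0.10, 95% interval -0.62 to -0.16, limma adjusted p = 0.121, and 0.0457 with array weights). Rpl5, which carries 5S rRNA and restrains Mdm2, was at 21.9, 23.7 and 23.7 CPM against 25.9, 31.0 and 39.6 CPM. It was the 1 member whose knockout libraries all lay above the controls (log2 fold change 0.44, SE 0.16, adjusted p = 0.195).

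Both genes have a listed copy, identical over a long stretch, that took far more reads. The copy Rpl31-ps8 matches the Rpl31 transcript at 100% over 378 bases and was at 278 to 329 CPM in the 6 libraries. The copy Gm15500 matches Rpl5 at 100% over 1018 bases and was at 444 to 536 CPM. Reads that lie within the identical stretch cannot be told apart. Rpl31 held 9.43% and Rpl5 5.46% of the signal of gene and copy together. Summed with its copy, Rpl31 was at 343, 366 and 311 CPM against 329, 325 and 307 CPM, and the groups overlapped (log2 fold change -0.08, SE 0.11, unadjusted p = 0.455). Rpl5 with its copy was at 469, 560.0 and 468 CPM against 491, 520 and 524 CPM, also with overlap (log2 fold change 0.04, SE 0.12, unadjusted p = 0.739). The values of both genes alone are therefore uncertain.

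Many members had near-identical copies. By the limits given next, 76 of the 82 had such a copy in the annotation, listed or not. Transcripts of 31 other listed genes matched 26 of the members at 95% identity or more over at least 80% of the shorter transcript and 150 bases, 15 of them at 100%. Of the 31, 26 are annotated as processed pseudogenes, 3 as transcribed processed pseudogenes and 2 as protein-coding. The copies exceeded the member's own value for 9 of the 26 and held 13.6% to 14.5% of the signal of members and copies in each library.

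Rpl30, a large subunit protein with 4 listed copies, shows how close such copies are. The lines give bases 492 to 551 of the Rpl30 transcript, in the coding sequence, with its copies aligned, and the capitals mark positions at which at least 1 copy differs.
Rpl30 (chromosome 15): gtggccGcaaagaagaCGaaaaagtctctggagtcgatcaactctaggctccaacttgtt
Gm12191 (chromosome 11): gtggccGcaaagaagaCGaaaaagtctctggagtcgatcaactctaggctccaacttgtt
Rpl30-ps10 (chromosome X): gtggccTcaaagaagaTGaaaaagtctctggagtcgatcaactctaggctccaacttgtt
Rpl30-ps8 (chromosome 12): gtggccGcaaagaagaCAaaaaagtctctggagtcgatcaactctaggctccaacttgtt
Rpl30-ps9 (chromosome X): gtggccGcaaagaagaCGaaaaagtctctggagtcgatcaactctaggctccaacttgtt
Over the whole alignment of each, the 4 copies differ from Rpl30 at 1, 3, 3 and 2 positions in that order. The stretch aligned in all 4 was 342 bases long. Rpl30 alone was at 151, 104 and 83.8 CPM against 86.4, 151 and 146 CPM, a spread of 27.0% (coefficient of variation over 6 libraries). With its copies it was at 258, 269 and 235 CPM against 239.7, 256 and 252 CPM, a spread of 4.98%, and the log2 fold change went from 0.18 to -0.03.

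Rpl27, a large subunit protein and the member of the lowest level in that subunit, was at 9.68, 5.70 and 23.6 CPM against 24.1, 21.0 and 10.5 CPM. Its log2 fold change of 0.61 (SE 0.49, adjusted p = 0.525) was the most positive of all members, and the groups overlapped. With Rpl27-ps3, identical over 411 bases, it was at 156, 176 and 178 CPM against 168, 147 and 130.4 CPM, and the log2 fold change was -0.20 (SE 0.12). Rps13 and Rps6, both of the small subunit and named after their values were seen, had the same pattern. The spread of Rps13 was 39.7% alone and 9.22% with its copy, and that of Rps6, the substrate of the S6 kinases, 12.8% and 3.93%. Rpl10, which joins the large subunit last, had a log2 fold change of 0.10 alone and -0.07 with its copy.

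**Figure D4:**
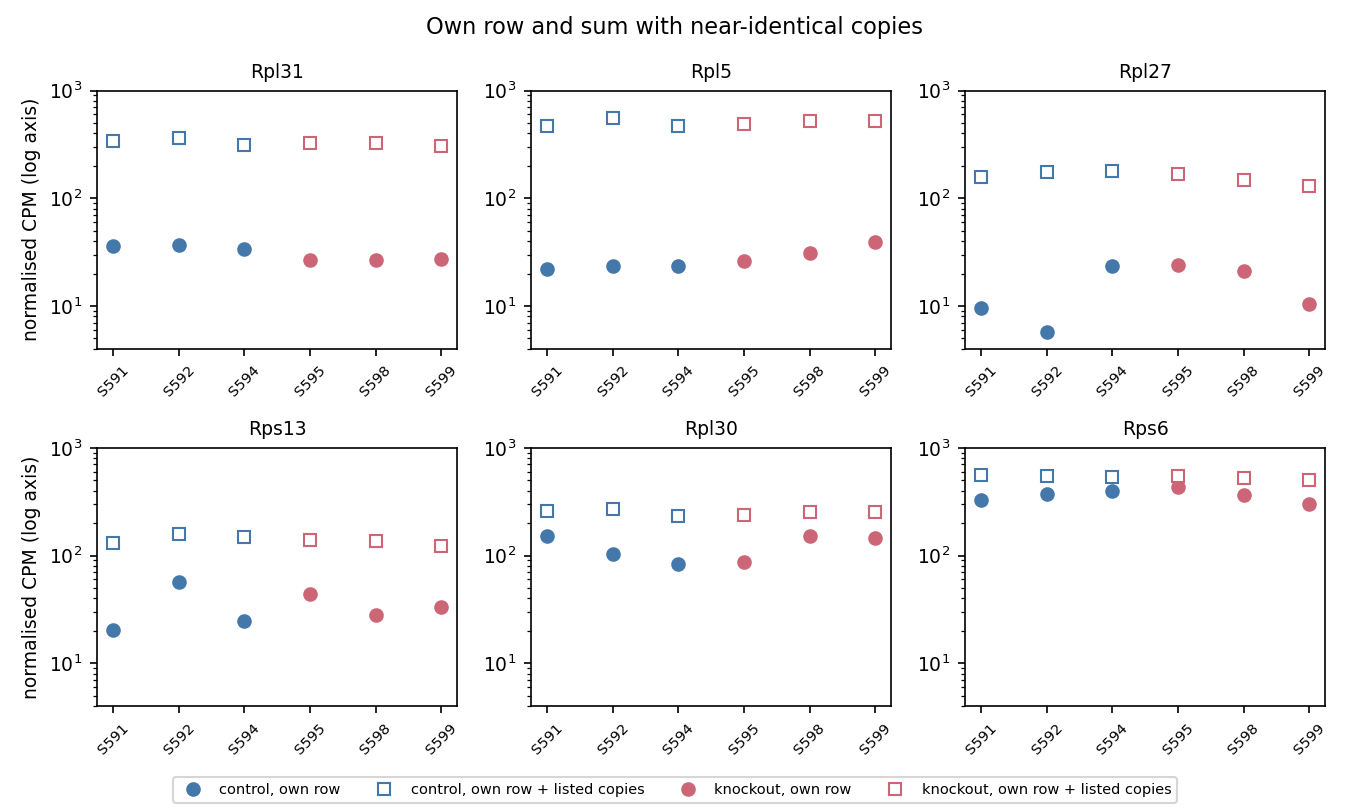
Normalised CPM (log axes) of 6 members in each library, with filled circles for the member's own value and open squares for the sum with its near-identical listed copies, control in blue and knockout in red. For Rpl31, Rpl5, Rpl27 and Rps13 the squares lie well above the circles and vary less, as for Rps13 with a spread of 39.7% alone and 9.22% summed.

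Over the 26 members with copies, the median spread was 11.8% alone and 8.21% summed, and it was lower in 20 and higher in 6. Over all 82 the median spread was 9.37% alone and 8.32% summed, while the 4096 other genes of like level had 12.2%. The sum turned the sign of the log2 fold change for 8 members. After summing, 0 of 82 members were called, 4 had an unadjusted p of 0.05 or less (Rplp0, Rplp2, Rps19 and Rps29), and the groups did not overlap for 20, all lower. Over all 14267 genes of that fit, 2857 had an unadjusted p of 0.05 or less. Of these 14267 genes 25.5% did not overlap, 1616 higher and 2026 lower. The members' 24.4% was near that share of both directions together, but all 20 members were lower. The sign was negative for 74 of 82, the median log2 fold change was -0.12, and the lowest adjusted p was 0.229. Large minus small subunit genes then had a mean log2 level of 0.19 ± 0.03 (SD, n = 3) in control and 0.19 ± 0.02 (SD, n = 3) in knockout libraries.

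Per kilobase of coding sequence, the levels of 75 measured subunit genes became more alike when copies were added. Rps19bp1, the paralogues and Rpl37rt were left out of these. Alone, the median level was 409 CPM per kilobase for the large and 601 for the small subunit, and the range ran from 31.0 for Rpl5 to 1558 for Rpl39, a ratio of 50.2. With copies, the medians were 548 and 629 CPM per kilobase, and the range ran from 102 for Rps27a, a fusion of ubiquitin and a small subunit protein, to 1677 for Rpl39, a ratio of 16.5. Rpl39 and Rps27a were named after their values were seen.

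The paralogues were described as log2 level minus that of the parent gene, without length correction, and 5 of 8 listed pairs were measured. With 3 against 3 libraries the exact two-sided permutation test cannot go below 0.1, so none could pass 0.05. Rpl22l1, a relative of Rpl22 known from T cell development, was at 66.7, 67.9 and 63.7 CPM against 62.9, 73.7 and 69.0 CPM. Relative to Rpl22 it was at -1.20 ± 0.07 in control and -1.07 ± 0.02 in knockout libraries (SD, n = 3), a difference of 0.14 without overlap (exact p = 0.1, adjusted 0.167 over 5 pairs). Rps27l, a p53-inducible relative of Rps27, was at 56.9, 60.3 and 59.2 CPM against 56.5, 48.0 and 49.9 CPM. Relative to Rps27 it was at -2.01 ± 0.07 and -2.18 ± 0.09 (SD, n = 3; exact p = 0.1, adjusted 0.167). Rpl36al was at 95.2, 101 and 103 CPM against 98.5, 82.6 and 80.9 CPM, and relative to Rpl36a the difference between groups was -0.09 (exact p = 0.1, adjusted 0.167). Rpl7l1, a nucleolar relative of Rpl7, was at 61.4, 71.7 and 70.8 CPM against 69.5, 55.8 and 53.1 CPM, with overlap and a difference from Rpl7 of -0.22 (exact p = 0.2, adjusted 0.25). Rps4l, the small subunit member of the lowest level, was at 7.91, 5.57 and 4.27 CPM against 5.55, 5.93 and 4.33 CPM, and its difference from Rps4x gave an exact p of 0.9.

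Rack1 and Fau encode ribosomal proteins that the name rule leaves out. Rack1, a scaffold on the small subunit, was at 425, 472 and 491 CPM against 421, 407 and 393 CPM, with all knockout libraries below the controls (log2 fold change -0.18, adjusted p = 0.391). Fau, a ubiquitin-like fusion of a small subunit protein, had 0 reads in S591 and S599 and between 12.0 and 30.5 CPM in the other libraries, so no fold change is given for it.

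Genes that act with the ribosome were read from lists chosen by function. Of 43 ribosome biogenesis genes 0 were called, 1 was higher and 4 lower at an unadjusted p of 0.05, and their median log2 fold change was -0.12. Of 22 translation factors, many with pyrimidine-tract mRNAs, none reached an unadjusted p of 0.05, and the median was -0.05. Of 20 genes of the mTOR pathway, 3 were higher and 1 lower at that p, with a median of -0.02. Over all 14298 genes, 2860 reached that p, 8.04% higher and 12.0% lower. None of these lists held a larger share in both directions together than all genes did. Rictor, a subunit of mTOR complex 2, was at 47.2, 45.8 and 48.4 CPM against 54.1, 59.4 and 58.1 CPM without overlap (log2 fold change 0.27, adjusted p = 0.167). Myc, a driver of ribosome synthesis, was at 13.1, 11.9 and 15.8 CPM against 9.05, 10.5 and 9.83 CPM, also without overlap (log2 fold change -0.43, adjusted p = 0.199). The Myc network of 10 genes had a median of -0.06.

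Other large assemblies had medians like that of the ribosome. Unlike the ribosomal protein genes, the mitochondrial ribosome and respiratory chain lists were highest in S591. The 77 mitochondrial ribosomal proteins had a median log2 fold change of -0.11, the 82 nuclear-encoded respiratory chain genes -0.16 and the 38 proteasome subunits -0.12. At an unadjusted p of 0.05, 3, 0 and 7 of them were lower and none higher. These are 3.90%, 0% and 18.4% of each list. Over all 14298 genes 2860 reached that p, 8.04% higher and 12.0% lower. The groups did not overlap for 7, 0 and 9 of them, all lower, which is 9.09%, 0% and 23.7%. Over all genes 25.5% did not overlap, 11.3% higher and 14.2% lower. The mean log2 level of the respiratory chain genes, relative to its mean over the 6 libraries, was highest in the control library S591. It was 0.52, -0.25 and -0.05 in control and 0.09, -0.19 and -0.12 in knockout libraries. For the mitochondrial ribosome it was 0.27, -0.10 and -0.01 against 0.05, -0.09 and -0.10. For the proteasome it was 0.09, 0.03 and 0.10 against 0.02, -0.13 and -0.12, lowest in S598 and S599. The ribosomal protein genes were at -0.01 in S591 and lowest in S599, at -0.17, with S598 next at -0.02. Whether the ribosomal protein genes differ from these lists was not tested.

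**Figure D5:**
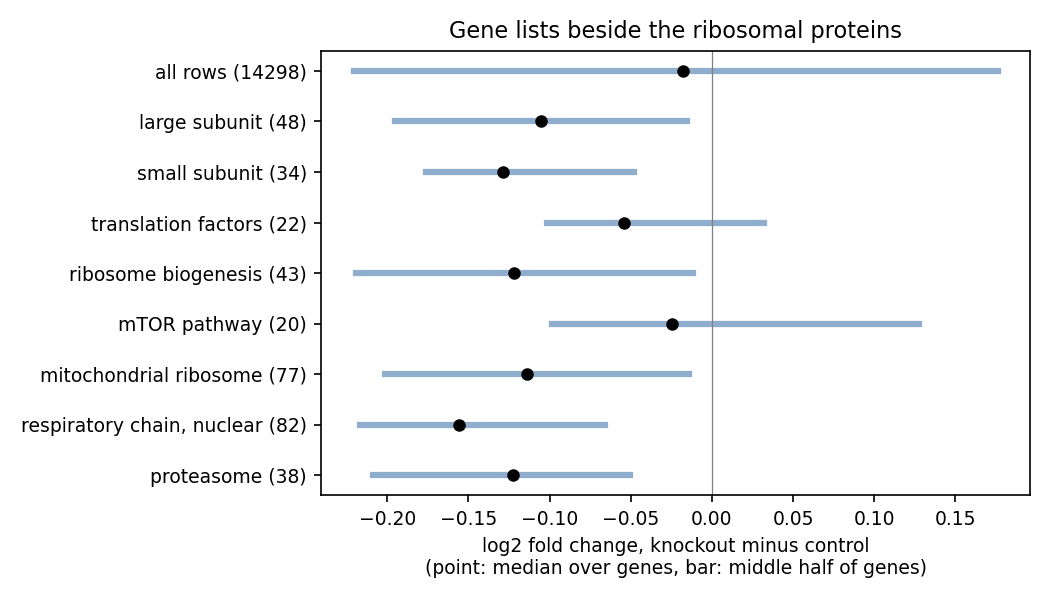
Median log2 fold change, knockout minus control (black points), and the range of the middle 50% of genes (bars) for the ribosomal protein genes and the lists beside them, with all listed genes on top. The large subunit (-0.11), small subunit (-0.13), mitochondrial ribosome (-0.11), respiratory chain (-0.16) and proteasome (-0.12) medians lie close together, below that of all genes (-0.02).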

How the data were processed

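PolyA RNA of whole aortic arches was sequenced from 3 control and 3 knockout mice, with groups taken from the sample titles. The deposited values are a normalised signal, which on the values themselves equals (reads + 0.5) in CPM of a TMM-scaled library size. Whole reads were recovered from 100% of values (tolerance 0.01), and 1 read was worth 0.0964 to 0.178 CPM. Every listed gene's third-highest value was at least 1.05 CPM. Per the submitters' processing notes, CASAVA 1.8, cutadapt 1.6.1, RSEM 1.16, Bowtie 0.12.7, limma, edgeR and build NCBIM37 were used, with no roles given. The gene annotation, the strand setting and the way reads of identical copies were assigned, which bears on many of these genes, were not given in the sources used here.

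Symbols came from GENCODE M21 by Ensembl identifier (13828 matched, 470 did not). The main test was limma (version 3.58.1, R 4.3.3), fitted to all genes as log2(value + 1) with a variance trend by level, for genes of at least 1 CPM in at least 3 libraries (all passed), two-sided, Benjamini-Hochberg over all genes, threshold 0.05. edgeR 4.0.16 and DESeq2 1.42.0 were run on the recovered reads. Scripts were tested on simulated data. Copies were found by blastn 2.17.0, and the sums with copies were chosen after seeing the data. Members and gene lists were chosen with earlier results of these data known. The rule for named genes took the 3 highest and the lowest member of each subunit, up to 5 with the smallest p in each direction and the paralogues, with up to 2 of each further list and ribosomal proteins outside the name rule (Rack1, Fau and another that is not reported here). Beyond separate mice, nothing says how libraries were batched.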

Additional observations from a re-analysis of the deposited data

How the results depend on the processing

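Counts of 0 called members held under all alternatives but limma array weights, which called 1 member lower (Rpl31, adjusted p = 0.0457), and medians stayed negative throughout. Leaving out each library in turn moved the median log2 fold change between -0.15 and -0.054 over all members, between -0.16 and -0.054 for the large and between -0.15 and -0.056 for the small subunit, with 0 calls. Without S598 and S599 the medians were -0.023, -0.025 and -0.017, with S595 assumed to vary like the controls. Rescaling to the same sum gave 61 negative members in place of 66. Signs turned for some members, and not all of these were near 0 in the main fit. Quantile normalisation gave -0.012 for Rpl4 and -0.010 for Rps4x, and array weights -0.013 for Rpl4. Without S598 and S599, Rpl10 was -0.012, Rps4x -0.010, Rpl22l1 -0.070, Rpl30 -0.34 and Rpl7l1 0.035. Summed with copies, Rpl10 was -0.068, Rpl27 -0.20 and Rpl30 -0.026. With 1 library left out, the ranges crossed 0 for Rpl4 (-0.027 to 0.051), Rps4x (-0.010 to 0.029), Rps4l (-0.30 to 0.082), Rpl30 (-0.016 to 0.43), Rpl7 (-0.018 to 0.051) and Rpl22l1 (-0.0049 to 0.11). The cause was not tested. No paired analysis was possible because the columns carry library numbers that cannot be tied to the numbers in the titles. With 3 libraries a group, small shifts such as those of the medians are near the spread between libraries.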
